A study of Caenorhabditis elegans with 7 samples.

Results

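The genes described here are 6 chaperone genes of the Hsp70 machinery of Caenorhabditis elegans: the Hsp70 genes hsp-70, F44E5.4 and F44E5.5, the Hsp110 gene C30C11.4 (now hsp-110) and the J-domain genes dnj-13 and dnj-8. They were found by name in the table that the authors deposited of genes higher in DD neurons, which names 201 genes, and they correspond to 7 of the 22625 probe sets on the array, because C30C11.4 has 2. All 6 were therefore selected as higher in DD neurons on the same arrays, so their difference between the groups is given as a description, without a test.

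The study measured expression on Affymetrix arrays with 1 array per sample, 4 for DD neurons and 3 for the cells of whole larvae, called all cells. DD neurons are a class of inhibitory motor neurons in the ventral nerve cord that release GABA. The DD samples were sorted by fluorescence from L1 larvae of strain CZ8332, which carries the transgene juIs223 with mCherry under the ttr-39 promoter and GFP under that of ttx-3. The all-cell samples came from L1 larvae of the wild-type strain N2. All larvae of both groups had hatched overnight at 20 °C in M9 buffer without food and were arrested in growth, after their parents had been grown on NA22 bacteria, and 5 to 10 ng of total RNA was amplified for each array. The cells sorted are those in which the ttr-39 promoter drives the reporter; one label of the DD samples names GFP instead of mCherry. For the all-cell samples no dissociation or sorting step is given in the sources used here, so cell type, strain and the sort cannot be told apart. The labels do not say whether samples of one group came from separate cultures, and the spread between them may be technical.

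Hsp70 proteins bind unfolded stretches of other proteins and release them in a cycle driven by ATP. J-domain proteins bring clients to Hsp70 and stimulate its ATPase, and Hsp110 proteins, which are distant relatives of Hsp70, exchange its nucleotide so that the client is let go. In worms part of this machinery is made all the time, and part is transcribed by the heat shock factor HSF-1 when proteins misfold, as after heat.

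Markers of the sorted neurons were looked at as far as they could be named. Of 8 listed genes of DD and GABA D-type neurons 7 are named in the authors' table, and the mean log2 value over those 7 was 9.20 to 9.70 in the DD arrays and 6.51 to 6.92 in the all-cell arrays. Of 18 listed markers of muscle, intestine, epidermis, pharynx and germline, 4 are named there (ttn-1, acdh-1, ptr-24 and pgl-1), and their mean was also higher, at 6.94 to 7.58 in the DD arrays and 5.77 to 6.09 in the all-cell arrays. The 7 and these 4 were selected as higher like every named gene, so neither mean is a check of the sort. Among the 7 is ttr-39, whose promoter drives the reporter. The other 14 markers of other tissues carry no name here, and the part of other cells in the results was not tested. The values are log2 intensities of whole samples, in which fewer cells of a type and less RNA per cell cannot be told apart. The 77 array control probe sets were higher in DD neurons by a mean of 0.36 (log2); with each array centred on them the member differences ran from 1.095 for dnj-8 to 3.42 for F44E5.5.

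The 3 Hsp70 genes had the largest measured differences of the 6, with means 9.26-fold to 13.7-fold higher in DD neurons. The 9.26-fold of hsp-70 is not exact, because its all-cell values were not shown to be above background. F44E5.4 and F44E5.5 lie next to each other in the RefSeq annotation of the assembly WBcel235, and both encode members of the Hsp70 family that are induced by heat in worms.

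F44E5.4 (probe set 190958_s_at) read 12.36, 12.96, 13.08 and 12.15 (log2) in DD replicates 1 to 4 and 10.06, 9.54 and 7.64 in all cells replicates 1 to 3. The lowest DD array exceeded the highest all-cell array by 2.09, and all cells replicate 3 was the lowest of all. The group means were 12.64 ± 0.45 (SD, n = 4) and 9.08 ± 1.27 (SD, n = 3), a log2 difference of 3.56 ± 0.54 (SE), or 11.8-fold. Without all cells replicate 3 the difference was 2.84 ± 0.33 (SE), or 7.16-fold.

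F44E5.5 (171941_s_at) read 11.576, 12.604, 12.651 and 11.376 (log2) in the DD arrays and 9.388, 9.069 and 6.367 in the all-cell arrays. The groups did not overlap, and the same all-cell array, replicate 3, was again far below the other two. The means were 12.05 ± 0.67 (SD, n = 4) and 8.27 ± 1.66 (SD, n = 3), and the log2 difference of 3.78 ± 0.71 (SE), or 13.7-fold, was 2.82 ± 0.42 (SE), or 7.08-fold, when that array was left out. Both of these probe sets have the suffix that marks a match to several transcripts, so the 2 neighbouring genes may share signal and their separate values are uncertain.

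The gene hsp-70 (192266_s_at, sequence name C12C8.1) encodes an Hsp70 of the cytosol that is induced by heat in worms. It read 6.37, 7.92, 8.68 and 6.77 (log2) in the DD arrays and 4.58, 3.87 and 4.22 in the all-cell arrays. The DD arrays were spread widely, with replicates 2 and 3 high, while the all-cell arrays were close together and low. The means were 7.44 ± 1.06 (SD, n = 4) and 4.23 ± 0.35 (SD, n = 3), a log2 difference of 3.21 ± 0.53 (SE), or 9.26-fold. All 3 all-cell values lay below the medians of those arrays (5.33 to 5.37), and with no detection call or background level deposited the fold is not exact. This probe set too is marked as matching several transcripts.

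**Figure D1:**
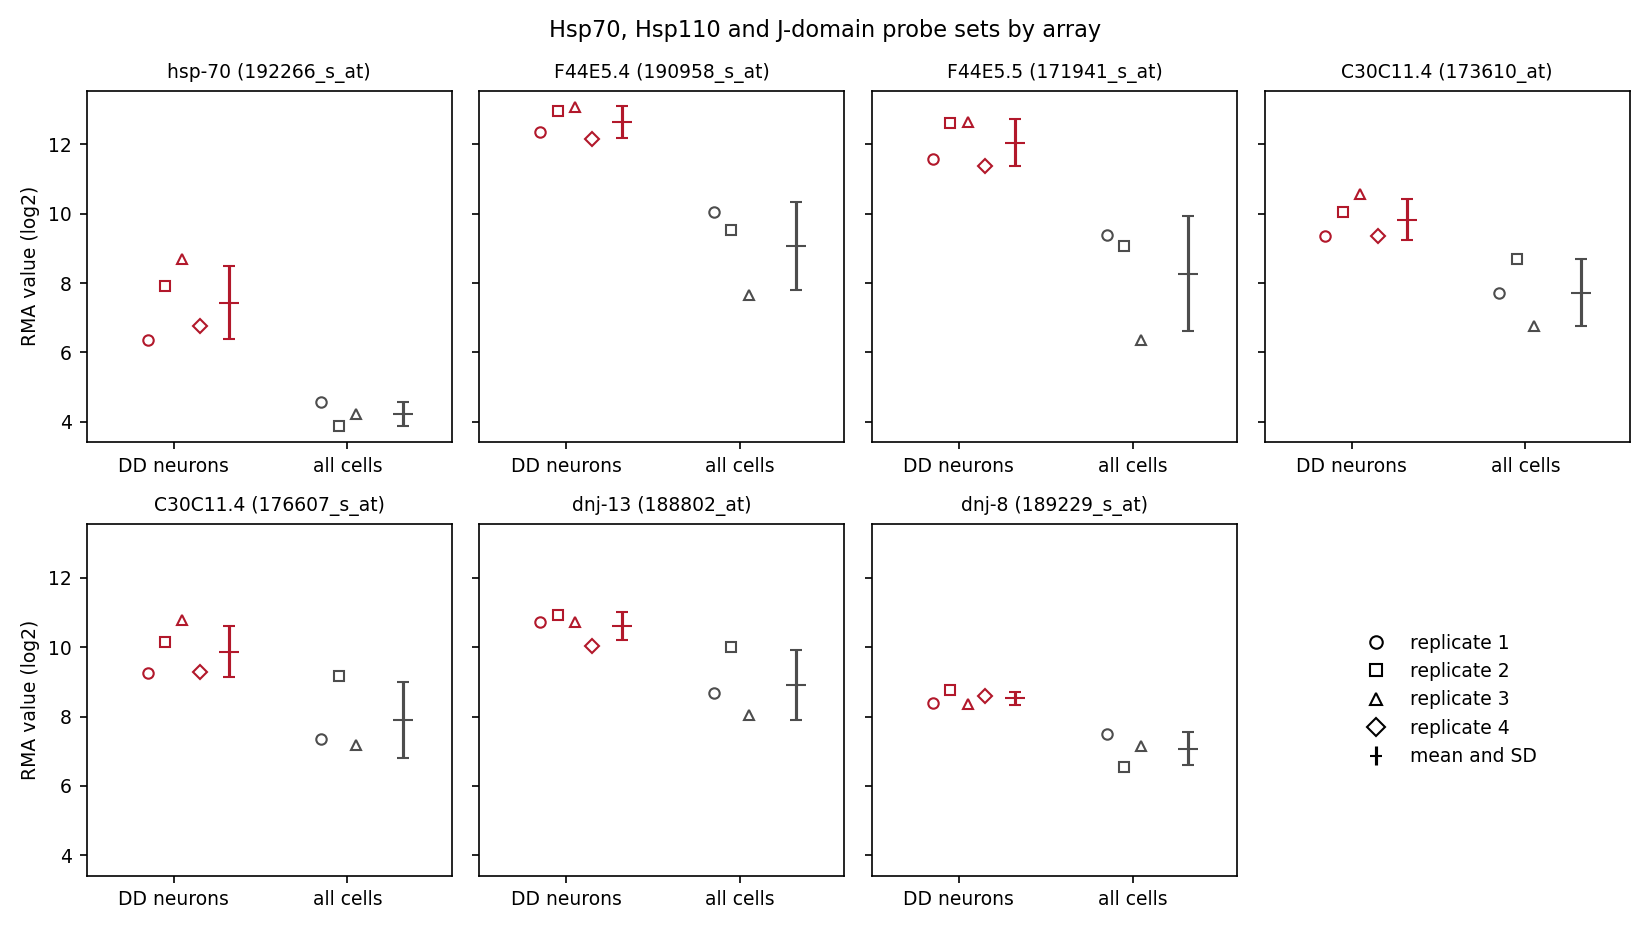
RMA values (log2) of the 7 member probe sets in each of the 4 DD arrays (red) and 3 all-cell arrays (grey), with a marker per replicate and the mean and SD beside each group. In all 7 panels the lowest DD array lies above the highest all-cell array, by 0.05 for dnj-13 and by 2.09 for F44E5.4. The same holds for 6.98% of all tested probe sets, and the members were chosen on this contrast.

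The Hsp110 gene and the 2 J-domain genes had smaller differences, 2.74-fold to 4.29-fold. C30C11.4 encodes HSP-110, the only Hsp110 among the 6, which in worms works with Hsp70 and J-domain proteins to dissolve protein aggregates.

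By its probe set 173610_at C30C11.4 read 9.35, 10.04, 10.57 and 9.35 (log2) in the DD arrays and 7.70, 8.70 and 6.77 in the all-cell arrays. Its second probe set, 176607_s_at, which is marked as matching several transcripts, read 9.26, 10.15, 10.79 and 9.27 in the DD arrays and 7.34, 9.16 and 7.18 in the all-cell arrays. Both probe sets put DD replicate 3 highest and all cells replicate 2 above the other all-cell arrays. By the second of them that array came within 0.10 of the lowest DD array. The log2 differences were 2.10 ± 0.48 (SE), or 4.29-fold, and 1.97 ± 0.56 (SE), or 3.93-fold, so the probe sets differed by less than their errors. Without all cells replicate 2 the second was 2.61 ± 0.45 (SE), or 6.09-fold.

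The J-domain gene dnj-13 (188802_at), whose product is a partner of Hsp70 and HSP-110 in worms, read 10.74, 10.93, 10.73 and 10.04 (log2) in the DD arrays and 8.69, 10.00 and 8.03 in the all-cell arrays. All cells replicate 2 lay only 0.05 below DD replicate 4, so the groups barely failed to overlap. The means were 10.61 ± 0.39 (SD, n = 4) and 8.91 ± 1.00 (SD, n = 3), a log2 difference of 1.71 ± 0.44 (SE), or 3.26-fold. When each array was centred on the array controls, the groups overlapped for dnj-13 and for the probe set 176607_s_at of C30C11.4, and 5 of the 7 member probe sets stayed separated, beside 0.936% of all tested probe sets under that centring. The members' selection on this contrast leaves nothing to be read from that count.

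The gene dnj-8 (189229_s_at) is described in the authors' table as coding for a protein with a J domain, and its probe set too is marked as matching several transcripts. It read 8.39, 8.76, 8.37 and 8.58 (log2) in the DD arrays and 7.50, 6.55 and 7.16 in the all-cell arrays. Its DD values were the most even of the members, and among the all-cell arrays replicate 2, high for C30C11.4 and dnj-13, was the lowest here. The means were 8.53 ± 0.18 (SD, n = 4) and 7.07 ± 0.48 (SD, n = 3), and the log2 difference of 1.45 ± 0.24 (SE), or 2.74-fold, was the smallest of the members. The smallest difference among all 222 named probe sets was 1.00.

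Ordered by difference, the members other than hsp-70 ran F44E5.5, F44E5.4, C30C11.4, dnj-13 and dnj-8, taking the mean of both probe sets for C30C11.4. The gene hsp-70 is given no rank, because its all-cell values were not shown to be above background. The difference of F44E5.5 exceeded that of F44E5.4 by 0.22 ± 0.24 (SE, log2). C30C11.4 exceeded dnj-13 by 0.33 ± 0.34, and dnj-13 exceeded dnj-8 by 0.25 ± 0.72, so in none of these 3 pairs was the step larger than its error. The step from F44E5.4 to C30C11.4 was 1.52 ± 0.55.

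**Figure D2:**
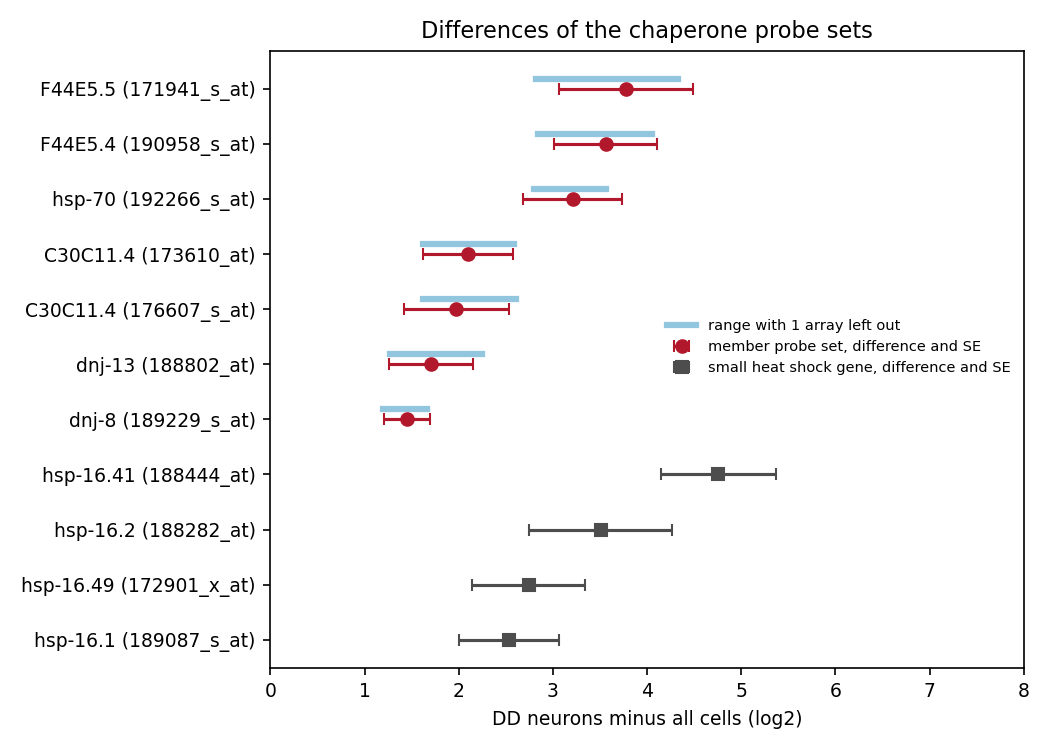
Log2 differences, DD neurons minus all cells, with their SE for the 7 member probe sets (red circles) and for the 4 named small heat shock genes (grey squares); blue bars give the range when 1 array is left out. The 3 Hsp70 genes lie at 3.21 to 3.78, the other members at 1.45 to 2.10, and every blue bar stays above 1.

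Set among all 22548 tested probe sets, the members lay in the upper tail, where their selection had placed them. Their median log2 difference was 2.10, against 0.06 for all tested probe sets and 1.26 for the named ones. Counting the member itself, 4 of all tested probe sets had a difference at least as large as that of F44E5.5 and 6 as that of F44E5.4. For hsp-70, whose difference is not exact, the number was 12. For dnj-8 the number was 92. By limma, with a Benjamini-Hochberg adjusted p under 0.05 as threshold, 1 of the 7 member probe sets was called, that of F44E5.4, where 0.191% of all tested probe sets were called higher in DD neurons. That call was lost when any 1 of the 4 DD arrays or all cells replicate 2 was left out. All 7 had every DD array above every all-cell array, as had 6.98% of all tested probe sets. Because the members were chosen on this contrast, neither count says anything about them beyond their selection.

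**Figure D3:**
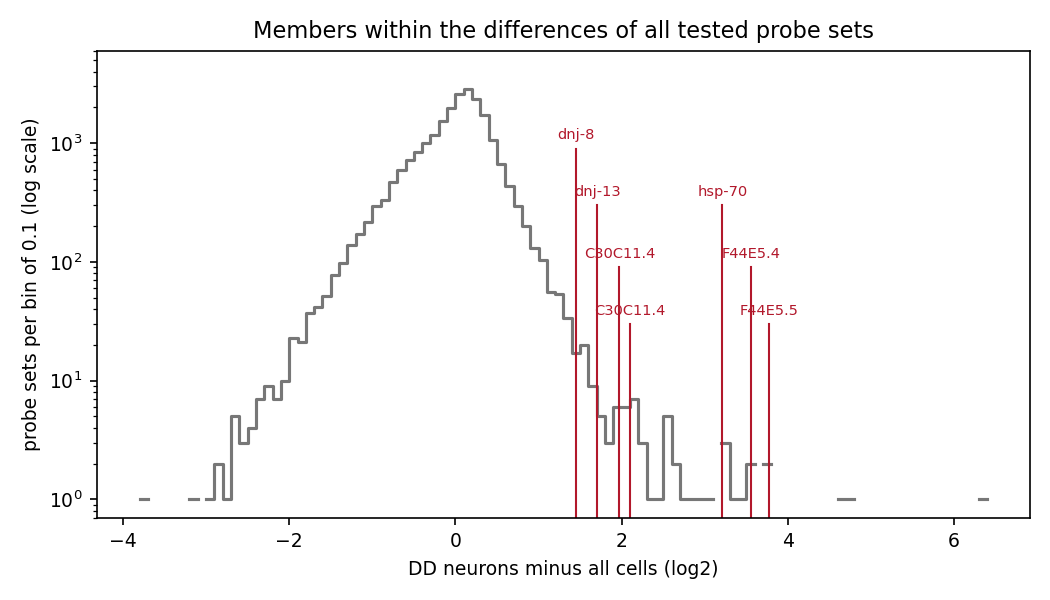
Number of tested probe sets per bin of 0.1 in log2 difference, DD neurons minus all cells, on a log scale (grey line), with a red line at each member probe set; the heights of the red lines only make room for the names. The bulk of the 22548 probe sets lies around 0.06, and the members lie between 1.45 and 3.78.

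The spread between arrays of one group was wide for most of the members. The authors' table divides each difference by a measure of spread, so these values too are a description. The members' median SD was 0.59 (log2) in DD neurons and 1.00 in all cells, against 0.32 and 0.24 for all tested probe sets and 0.42 and 0.38 for the named ones. The SD of hsp-70 in DD neurons exceeded that of 98.7% of tested probe sets, and the SD of F44E5.5 in all cells exceeded that of 99.6%. The SD of dnj-8 exceeded that of 21.3% of them in DD neurons but of 81.7% in all cells, and that of hsp-70 in all cells exceeded 68.9%.

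Within DD neurons the Hsp70 genes and C30C11.4 varied alike. Replicates 2 and 3 were both above replicates 1 and 4 for 5 of the 7 member probe sets, those of hsp-70, F44E5.4, F44E5.5 and C30C11.4, and for 14.5% of all tested probe sets. This split was taken from the members' own values, so the count is no test. The 5 are not separate signals: C30C11.4 counts with both probe sets, and those of F44E5.4 and F44E5.5 may share targets. The mean over the 7 probe sets was 9.72, 10.48, 10.70 and 9.65 in DD replicates 1 to 4. For dnj-13 it was replicate 4 that stood apart, 0.57 below the mean of its group, and dnj-8 stayed within 0.24 of its mean in all 4.

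Among the all-cell arrays 2 patterns were seen. F44E5.4 and F44E5.5 were highest in replicate 1, at 0.98 and 1.11 above their group means, and lowest in replicate 3, at -1.44 and -1.91. C30C11.4 and dnj-13 were instead highest in replicate 2, at 0.98 and 1.27 for the 2 probe sets of C30C11.4 and 1.09 for dnj-13, and their values in replicate 1 were -0.02, -0.55 and -0.22. Replicate 3 was the lowest for these 5 probe sets. It was not low for dnj-8 (0.09) or for hsp-70 (-0.01), whose all-cell values were not shown to be above background. The median of that array was 5.37 beside 5.33 and 5.34 in the others, but RMA adjusts the arrays to each other. The mean over the members was 7.90, 8.13 and 6.77 in all cells replicates 1 to 3, each below the lowest DD array.

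As a description over the 7 deviations from the group means, Pearson's r was 0.99 between F44E5.4 and F44E5.5, whose probe sets may share targets, and 0.94 between the probe sets of C30C11.4. It was 0.85 and 0.82 between these and dnj-13. With dnj-8 it was -0.49 and -0.65 for the probe sets of C30C11.4 and -0.62 for dnj-13. With hsp-70 it lay between 0.03 and 0.47 for every other member. Those values include the all-cell arrays, where hsp-70 was not shown to be above background. The mean over the 21 pairs was 0.38. All these values rest on 7 arrays of 2 groups and share the arrays' normalization.

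**Figure D4:**
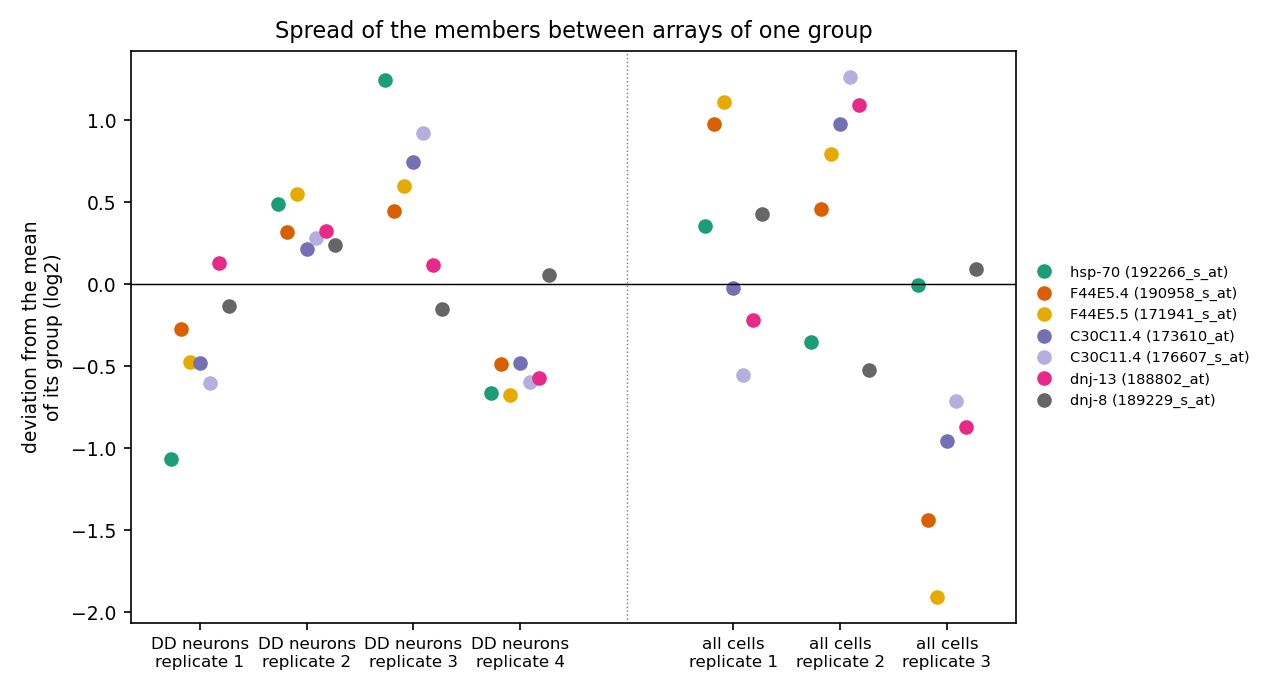
Deviation (log2) of each member probe set from the mean of its own group, for the 4 DD arrays on the left and the 3 all-cell arrays on the right. The Hsp70 and C30C11.4 points lie above 0 in DD replicates 2 and 3 and below 0 in replicates 1 and 4, and in all cells replicate 3 F44E5.4 and F44E5.5 fall to -1.44 and -1.91.

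Among the 195 other named genes, those most like the mean deviation of the members over the 7 arrays were hsp-16.41 (r = 0.97), hsp-16.1 (0.96), hsp-16.49 (0.95), F34D10.4 (0.92), hsp-16.2 (0.87) and R107.5 (0.87). In that mean C30C11.4 counts with both probe sets, and those of F44E5.4 and F44E5.5 may share targets. The gene dnj-8 enters it too, although its r with C30C11.4 and dnj-13 was negative. The probe sets of hsp-16.1, F34D10.4 and R107.5 are marked as matching several transcripts. That of hsp-16.49 ends in x_at, so the values of the hsp-16 genes may not be separate. The 4 hsp-16 genes encode small heat shock proteins, which hold unfolded proteins without using ATP, and they are all of that class that could be named. The median r over the 195 genes was -0.10. Of all 22548 tested probe sets, the members included and most of them unnamed here, 273 or 1.21% reached the r of R107.5 or more.

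The small heat shock genes were chosen on the same arrays, and their values stand beside those of the members only for reference. The log2 differences were 4.76 ± 0.61 (SE) for hsp-16.41, 3.51 ± 0.76 for hsp-16.2, 2.74 ± 0.60 for hsp-16.49 and 2.53 ± 0.53 for hsp-16.1, a range that overlaps that of the 3 Hsp70 genes. The all-cell mean of hsp-16.41, 3.70 (log2), lay below the medians of those arrays, so its difference is not exact.

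From lists of 94 names of chaperone and stress genes, 10 were found, the 6 members and these 4. A gene can stand in the lists under several names, so the counts are of names. Of the Hsp70 family 4 of 12 listed genes were named, counting C30C11.4, and of the J-domain family 2 of 30. None was found of the names listed for Hsp90 (5), chaperonins (10), co-chaperones (6) and nucleotide exchange (3). The same holds for 4 regulators of the heat shock response such as hsf-1, and for 8 names listed as other stress genes. Among those 8 is hsp-110, the current name of the member C30C11.4, which was found here under its older name. The values of genes without a name in the authors' table were not analysed here.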

How the data were processed

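The deposited values are on a log2 scale and were made by the authors with RMA, per the submitters' processing notes. RMA removes background, adjusts the arrays to each other and combines the probes of a set. Software, version and probe set definition are not given in the sources used here. Gene names were taken from the authors' deposited table, which names 222 probe sets; its score and fold columns were not used. All 6 members matched the RefSeq gene table (WBcel235), whose coordinates are not printed because the files name no build. Members and lists were chosen with earlier results of these data known.

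After 77 array controls were left out, 22548 probe sets were fitted with limma 3.58.1 (lmFit and eBayes, R 4.3.3) on 7 arrays, without covariates, and p-values adjusted over all of them. The code was tested on simulated data. All probe sets of a member were kept. The genes named as most like the members were the 6 named genes with the highest correlation of deviations from the group means, 1 probe set per gene, the one with the highest mean. Alternatives were other normalizations, a filter on dim probe sets, a variance trend, a replicate block and leaving out each array. The replicate block pairs arrays by replicate number. DD replicate 4 has no partner, so the differences there are those without that array, with fewer degrees of freedom. The number of arrays limits the precision. Tables were made with Python 3.11.15. Promoters and proteins were not analysed here.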

Additional observations from a re-analysis of the deposited data

How the results depend on the processing

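The log2 difference of every member probe set stayed positive under all 14 alternatives. The members were selected as higher on these arrays, so their sign was largely set in advance. The filter on dim probe sets, keeping the array controls and the variance trend cannot change a difference of means. The median over the members was 1.62 to 2.61 with 1 array left out. Of the other settings, 1 moved a member by more than its SE, the centring of arrays on their array controls. There dnj-8 went from 1.45 ± 0.24 (SE) to 1.095, and the median of all tested probe sets moved from 0.06 to -0.30. The number of member probe sets called, 1, became 2 with that centring and with a variance trend and robust estimation (hsp-70 and F44E5.4), 4 when dim probe sets were left out, where fewer were tested, and 0 to 1 with 1 array left out. Of the 4, hsp-70 passed the filter only by its DD arrays. Given the selection, no member call is support. F44E5.4 kept its call without all cells replicate 1 or 3 and lost it without any other. Over all tested probe sets 43 were called higher and 51 lower. These became 43 and 33 with quantile normalization, 47 and 28 with median centring, 40 and 393 with centring on the controls, 65 and 94 without dim probe sets, 39 and 37 with the variance trend, and 6 to 23 and 0 to 39 with 1 array left out; the cause was not tested. Of the arrays left out, DD replicate 1 gave the fewest, where limma's unadjusted p under 0.05 still held for 1211 higher and 1779 lower. The mean correlation between members was 0.33 to 0.60 with 1 array left out, highest without all cells replicate 2.

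With the replicate block, limma called 2 higher, 0 lower and 0 members. Of 22548 tested probe sets, limma's unadjusted p under 0.05 held for 1444 higher and 2075 lower. It held for all 7 member probe sets, which were chosen on this contrast, so that count says nothing about them beyond their selection. The block drops DD replicate 4, so the fall in calls says nothing of pairing. The median over the members was 2.26. Deviations correlated by -0.01, 0.07 and 0.09 between same-numbered arrays and by -0.19 to 0.15 between others. Whether same-numbered arrays share a preparation is not said and was not tested. The planned look at promoters and proteins was not run.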
